A study of Homo sapiens with 12 samples.

Results

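The genes described here are 8 genes of the megakaryocyte lineage: ITGA2B, ITGB3, GP9, GP1BA, TUBB1, FLI1, RUNX1 and CD9. They were chosen by name, with earlier results of these data known. Each was found in all 3 deposited tables, as 8 of 23153 genes shared by the tables. Messenger RNA was measured in K562 cells, a human leukaemia line with erythroid and megakaryocytic features, given fatty acids coupled to albumin. Experiment 1 held wild-type cells left untreated, given palmitate (a saturated fatty acid) or given palmitoleate (its monounsaturated counterpart of the same chain length). In experiment 2 the wild-type conditions were untreated, palmitate and the mixture of both fatty acids, beside GPAT4 knockout cells given palmitate (GPAT4 is an acyltransferase of glycerolipid synthesis). In experiment 3, wild-type cells and an RNF213 knockdown (a ubiquitin ligase) were each studied untreated and with palmitate. The palmitate dose was 0.2 mM, the time is 20 h in the labels but 16 h in table legends, and palmitoleate alone has no stated dose. Each library was made from RNA pooled over biological triplicates, so a condition had 1 library per experiment, and whether the knockout is 1 clone is not given in the sources used here. Of 12 labelled libraries 11 were used, because no values stand under the name of the untreated GPAT4 knockout.

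Megakaryocytes are the bone marrow cells that shed platelets, and they share a progenitor with red cells. Their surface carries the fibrinogen receptor, an integrin made of the alpha chain encoded by ITGA2B and the beta chain encoded by ITGB3, and the receptor for von Willebrand factor, whose subunits include the products of GP1BA and GP9. TUBB1 encodes the beta tubulin of the platelet's marginal microtubule ring, CD9 is an abundant platelet tetraspanin, and FLI1 and RUNX1 are transcription factors that act with GATA1 on many genes of the lineage. K562 cells are known to take on megakaryocytic features when treated with phorbol esters.

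The promoters of 3 of the 8 genes are shown because ITGA2B and TUBB1 were the members lower with palmitate and GP9 was listed at 0 throughout. The letters are the 250 bases before the RefSeq start on the gene's own strand in GRCh38.p14, and capitals mark the 4-letter cores GATA and GGAA on either strand. Lineage promoters are known to use such cores for GATA and ETS factors.
ITGA2B, chr17:44389650-44389899, minus strand: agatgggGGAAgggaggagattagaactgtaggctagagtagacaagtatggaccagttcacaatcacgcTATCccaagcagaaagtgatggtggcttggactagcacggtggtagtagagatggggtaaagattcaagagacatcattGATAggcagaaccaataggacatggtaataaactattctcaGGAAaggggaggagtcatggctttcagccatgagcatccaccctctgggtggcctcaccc
TUBB1, chr20:59019179-59019428, plus strand: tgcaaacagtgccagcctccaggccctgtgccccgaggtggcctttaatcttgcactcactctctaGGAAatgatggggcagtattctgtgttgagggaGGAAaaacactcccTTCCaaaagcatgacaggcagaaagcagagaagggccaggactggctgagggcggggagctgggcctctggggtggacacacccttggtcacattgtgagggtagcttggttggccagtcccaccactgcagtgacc
GP9, chr3:129060529-129060778, plus strand: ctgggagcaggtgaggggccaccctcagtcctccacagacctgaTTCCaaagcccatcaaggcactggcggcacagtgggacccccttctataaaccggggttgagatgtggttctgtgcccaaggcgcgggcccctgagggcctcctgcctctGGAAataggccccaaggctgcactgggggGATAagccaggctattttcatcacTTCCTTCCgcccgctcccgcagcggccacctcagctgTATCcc
The ITGA2B stretch held 2 GATA cores and 2 GGAA cores, the TUBB1 stretch 0 and 3, and the GP9 stretch 2 and 4. Among 35116 promoter stretches of the same length, 45.6% held the GATA core and 92.7% the GGAA core, so that these short letters are common everywhere. The longer words AGATAA or TGATAA were in 0 of the 8 stretches listed for 5 of the genes, against 14.6% of all promoters. CCGGAA or AGGAAG was in 3 (39.3% of all) and TGTGGT, a RUNX word, in 1 (11% of all), the GP9 stretch. ITGB3, GP1BA and FLI1 had no entry.

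K562 libraries carried their erythroid markers, with a summed level of 5077 to 17950 FPKM (fragments scaled to transcript length and library size) over 10 genes. The 3 endothelial markers summed to at most 0.0978 FPKM, and 2 of them were at 0 throughout. The 3 epithelial markers summed to 289 to 409 FPKM untreated and 332 to 1242 FPKM with palmitate in wild type, and their part in the results was not tested. Their mean log2 ratios were 0.98 for KRT8 (-0.24 in experiment 1), 0.95 for KRT18 and -0.79 for EPCAM, which was lower in 3 of 3 experiments, and none was called by limma although each had an unadjusted p under 0.05. Among genes under 0.06 FPKM, the commonest ratio of a library to the untreated wild-type library of its table was 0.894 to 1.12, so relative depth was similar, while read counts are unknown. GPAT4, listed as AGPAT6, stood at 8.77 FPKM in the knockout with palmitate against 20.0 FPKM in wild type with palmitate. RNF213 stood at 1.39 FPKM in the untreated knockdown against 1.96 FPKM in untreated wild type, and at 1.54 against 3.08 FPKM with palmitate.

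In untreated wild-type cells the lineage was represented unevenly. RUNX1 stood highest, at 15.8, 12.3 and 7.78 FPKM in experiments 1 to 3. TUBB1 stood at 10.5, 9.01 and 3.19 FPKM, and ITGA2B at 3.87, 11.2 and 1.73 FPKM. Those 3 genes led in each experiment, and TUBB1 and ITGA2B changed places in experiment 2, so their order does not hold beyond the spread. ITGB3 stood at 0.590, 1.13 and 0.250 FPKM, CD9 at 0.492, 0.0857 and 0.505 FPKM, and GP1BA at 0.394, 0.247 and 0.283 FPKM. The order of these low genes differed between the experiments as well. The tables were scaled separately, so part of the spread between experiments may be scale.

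GP9, FLI1 and GP1BA were barely present in any condition. GP9, the small glycoprotein subunit of the von Willebrand factor receptor, was listed at 0 in all 11 libraries. FLI1, an ETS transcription factor of the lineage, was listed at 0 in 8 libraries and at 0.00938, 0.00852 and 0.0142 FPKM in the others. GP1BA, the subunit that binds von Willebrand factor, ranged from 0.147 FPKM in the RNF213 knockdown with palmitate to 0.504 FPKM in wild type with palmitate of experiment 1. Its untreated and palmitate values overlapped in wild type (0.308 ± 0.0765 and 0.312 ± 0.173 FPKM, mean ± SD, n = 3 each). GP1BA overlaps CHRNE on the opposite strand, and whether fragments were counted by strand is not given in the sources used here. These 3 genes fell under the limit of a mean of 1 FPKM over the 11 libraries that was set for testing, and the other 5 passed it.

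**Figure D1:**
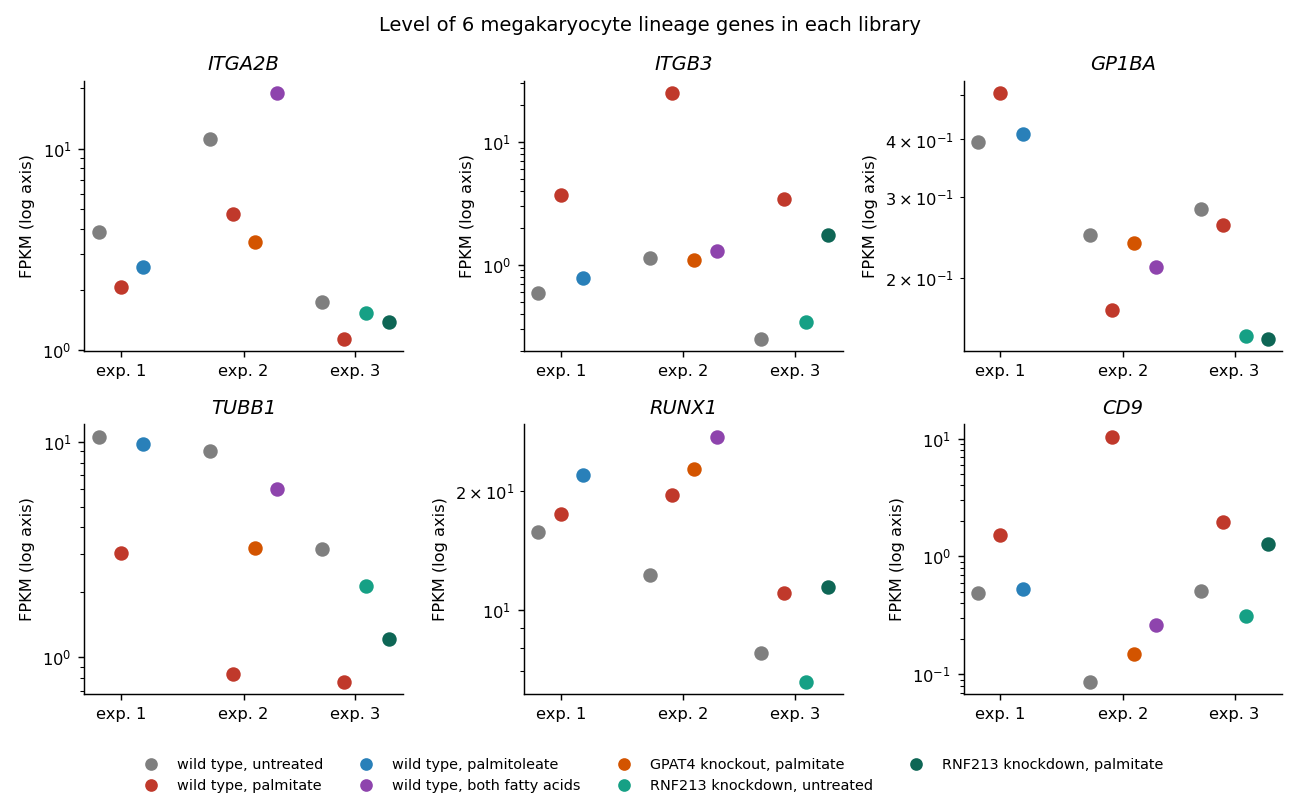
Level in FPKM (log axis) of 6 of the genes in each of the 11 libraries, grouped by experiment and coloured by condition. The 3 wild-type palmitate libraries lie above the untreated ones for ITGB3 and CD9 and below them for TUBB1 in each experiment.

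With palmitate, the beta chain of the fibrinogen receptor rose in wild type, while its alpha chain was lower in each experiment without passing the test. ITGB3, the beta chain (GRCh37 chr17:45331193-45391109, plus strand), stood at 0.590, 1.13 and 0.250 FPKM untreated in experiments 1 to 3 and at 3.72, 24.9 and 3.46 FPKM with palmitate. All palmitate values lay above all untreated values, and the fold changes of the FPKM themselves were 6.31, 22.05 and 13.9. On the scale of log2(FPKM + 1), ITGB3 rose by 2.34 ± 0.41 (mean ± SE, n = 3 experiments), higher in 3 of 3 experiments, with an adjusted p of 0.028 by limma. Without the libraries of experiment 1 the adjusted p was 0.0616, and without those of experiment 3 it was 0.0604. Without experiment 2 the ratio was 1.70 ± 0.27 with a limma adjusted p of 1.8e-08, from 2 experiments. In that fit the smallest adjusted p over all genes was 7.4e-56, against 0.00807 in the main fit. Its p values are thus not comparable with those of the main fit and are not read as stronger evidence. The ITGB3 locus overlaps a protein-coding model on its own strand, so the counting could split fragments between them. ITGB3 passed the expression limit only through the wild-type palmitate libraries, since its mean over the other 8 libraries was 0.902 FPKM. More RNA per cell and more cells that make it cannot be told apart in such bulk libraries, for this and the following genes.

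ITGA2B, the alpha chain (GRCh37 chr17:42449548-42467017, minus strand), stood at 2.05, 4.73 and 1.14 FPKM with palmitate, where the untreated libraries of the same experiments had 3.87, 11.2 and 1.73 FPKM. It was lower in 3 of 3 experiments, although the untreated and palmitate values overlapped between experiments. Its mean log2 ratio was -0.70 ± 0.22, with a 95% interval of -1.24 to -0.17, and it did not pass (limma adjusted p = 0.0865). With the trend on GC content removed the ratio was -0.44 (adjusted p = 0.202). ITGA2B transcripts have 60.8% GC, and in experiment 1 ratios fell with GC content across genes (Spearman's rho = -0.63, 9637 genes), against -0.0154 and 0.15 in experiments 2 and 3. Its ratio was largest in experiment 2, at -1.08.

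Within each wild-type palmitate library the order of both chains was the reverse of that in the untreated library. ITGB3 stood at 0.153, 0.101 and 0.144 times the level of ITGA2B in the untreated libraries of experiments 1 to 3, and at 1.81, 5.27 and 3.04 times with palmitate. The RNF213 knockdown showed the same order, with 0.224 untreated and 1.26 with palmitate. ITGB3 lay below ITGA2B with palmitoleate (0.301), with both fatty acids (0.0682) and in the GPAT4 knockout given palmitate (0.316). These ratios compare FPKM, which are per transcript length, and no test was run on them. ITGAV, which encodes the other alpha chain that pairs with ITGB3 and was looked up after the values were seen, stood at 4.72, 4.24 and 8.02 FPKM untreated and at 13.2, 8.64 and 9.46 FPKM with palmitate.

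**Figure D2:**
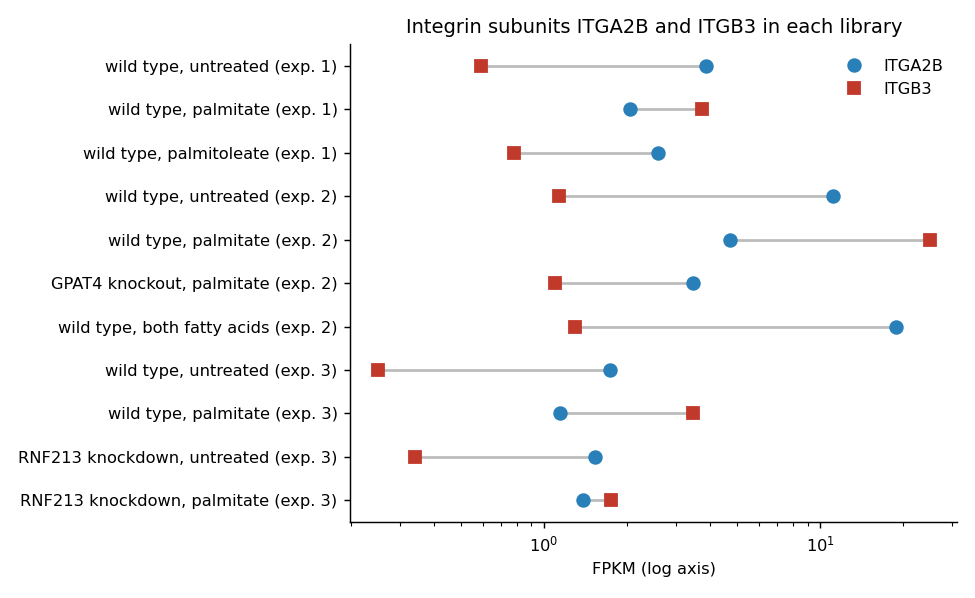
Level of ITGA2B (circles) and ITGB3 (squares) in FPKM on a log axis, 1 line per library. ITGB3 lies to the right of ITGA2B in the 3 wild-type palmitate libraries and in the RNF213 knockdown with palmitate, and to the left in the other 7 libraries.

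TUBB1 was the member that fell with palmitate. The gene lies at GRCh37 chr20:57594484-57601709 on the plus strand. Its untreated levels of 10.5, 9.01 and 3.19 FPKM stood against 3.05, 0.834 and 0.767 FPKM with palmitate. All palmitate values lay below all untreated values, and the palmitate level was 0.289, 0.0926 and 0.24 times the untreated one. TUBB1 fell by 1.74 ± 0.28 on the log2 scale (limma adjusted p = 0.025, lower in 3 of 3 experiments). Without experiment 1 the adjusted p was 0.0617, without experiment 3 it was 0.0581, and without experiment 2 the ratio was -1.38 with an adjusted p of 0.00322. The last p has the same limit as for ITGB3. TUBB1 overlaps ATP5F1E on the opposite strand, with the same limit on strand as for GP1BA, although the library kit keeps strand.

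CD9, the tetraspanin (GRCh37 chr12:6308881-6347437, plus strand), stood at 1.51, 10.4 and 1.97 FPKM with palmitate, against untreated levels of 0.492, 0.0857 and 0.505 FPKM. The groups did not overlap, and the level in experiment 2 stood far above the others. Its mean log2 ratio was 1.71 ± 0.51 with an interval of 0.47 to 2.95, and it did not pass (limma adjusted p = 0.0789). Experiment 2 lay far from the others, with a log2 ratio of 3.39 against 0.75 and 0.98 in experiments 1 and 3. Without experiment 2 the mean ratio was 0.87 ± 0.23 with a limma adjusted p of 0.00358, from 2 experiments. That p has the same limit as for ITGB3 and is not read as stronger evidence. CD9 also reached the expression limit only through the wild-type palmitate libraries, with a mean of 0.452 FPKM in the others.

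RUNX1, the runt-domain factor, had the highest mean level of the 8 and the smallest ratio of the 5 tested. Its locus is GRCh37 chr21:36160098-37376965 on the minus strand. Palmitate libraries held 17.5, 19.5 and 11.1 FPKM and untreated ones 15.8, 12.3 and 7.78 FPKM. It was higher in 3 of 3 experiments while the groups overlapped. The mean log2 ratio was 0.41 ± 0.22, with an interval of -0.12 to 0.94 (limma adjusted p = 0.246).

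Of the 8 genes, limma thus called 1 higher (ITGB3) and 1 lower (TUBB1) with palmitate, among 5 tested. Over all 11075 genes tested it called 6.79% higher and 4.22% lower, 11% in all. ITGB3 and CD9 had groups that did not overlap on the higher side, where 15.1% of all genes did so, and TUBB1 on the lower side, where 14.6% did. All 5 moved in 1 direction in every experiment, as did 25.9% of all genes upward and 29.6% downward. Past 2-fold on the log2(FPKM + 1) scale were ITGB3 higher and TUBB1 lower in experiments 1 and 3, where 6.83% and 6.39% of all genes were higher and 11.2% and 2.24% lower. In experiment 2 ITGB3 and CD9 were higher and TUBB1 and ITGA2B lower, where 12.1% and 11.6% of all genes were. The median ratio of the 5 genes was 0.41, against -0.06 over all genes tested. ITGB3 and CD9 reached the limit for testing only through the libraries in which they were high, so these counts and this median describe the genes and support nothing. Experiment 2 had the widest ratios over all genes, with 23.8% past 2-fold, against 18.1% and 8.63% in experiments 1 and 3, and it held the largest ratio of each of the 5 genes. The summed level of 10 erythroid markers moved as well, from 9982 to 17950 FPKM untreated to 5077 to 6207 FPKM with palmitate, and its part in these results was not tested.

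**Figure D3:**
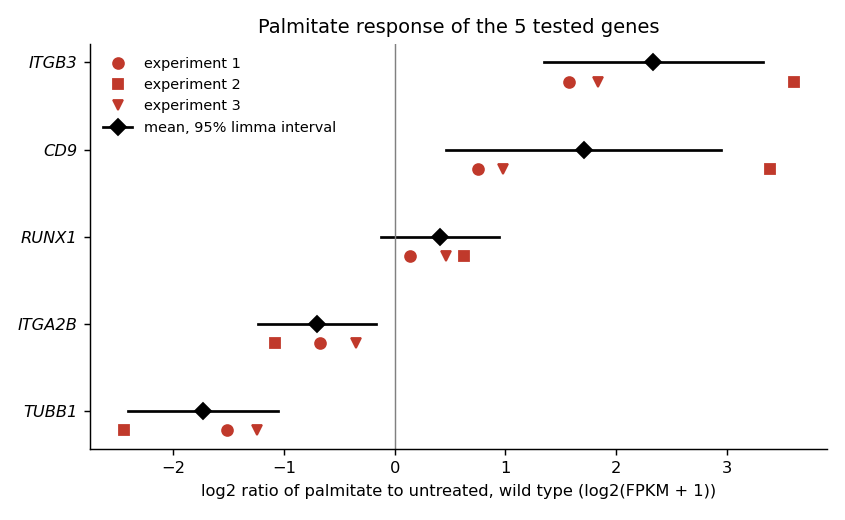
Log2 ratio of palmitate to untreated in wild type on the log2(FPKM + 1) scale, for each of 3 experiments (red) with the mean and its 95% limma interval (black). ITGB3 and CD9 lie right of 0, TUBB1 and ITGA2B left of it, and the interval of RUNX1 holds 0.

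Palmitoleate alone was asked about in experiment 1, where 1 library of each condition gives no replicate check. The ITGB3 level was 0.590 FPKM in the untreated library, 3.72 FPKM under palmitate and 0.778 FPKM under palmitoleate. In the same order TUBB1 stood at 10.5, 3.05 and 9.76 FPKM, CD9 at 0.492, 1.51 and 0.524 FPKM, and ITGA2B at 3.87, 2.05 and 2.59 FPKM. For ITGB3, TUBB1 and CD9 the palmitoleate library thus lay nearer to the untreated one, whereas ITGA2B lay nearer to palmitate and RUNX1, at 15.8, 17.5 and 22.0 FPKM, was highest with palmitoleate. Against untreated, 0 of the 5 genes were past 2-fold, where 0.605% of all genes were higher and 6.6% lower by that measure. The intervals all held 0 and were wide, such as -1.56 to 1.88 for ITGB3 and -1.27 to 1.07 for TUBB1 on the log2 scale, so they do not show equal levels. Each assumes that a lone library varies like the wild-type response did from experiment to experiment.

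Set against palmitate, TUBB1 had a log2 ratio of 1.41 with palmitoleate (interval 0.24 to 2.59) and ITGB3 one of -1.41 (interval -3.13 to 0.31). These were the 2 genes past 2-fold on the log2(FPKM + 1) scale, 1 higher and 1 lower, beside 1.25% of all genes higher and 4.66% lower. ITGB3 passed the limit for testing only through the wild-type palmitate libraries, so its being lower was partly built in and the count supports nothing. CD9 stood at -0.72, ITGA2B at 0.23 and RUNX1 at 0.31. In limma with the borrowed spread the smallest adjusted p of the 5 genes was 0.804. Palmitate and palmitoleate differ by a double bond, and the dose of the latter is not stated, so doses could not be matched and the pair was compared as deposited.

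When both fatty acids were given together, at 0.2 mM each per a table legend, ITGB3, CD9 and TUBB1 stood nearer to the untreated than to the palmitate library. ITGB3 stood at 1.29 FPKM with both, against 1.13 untreated and 24.9 with palmitate alone. CD9 stood at 0.263 FPKM against 0.0857 and 10.4, and TUBB1 at 6.04 FPKM against 9.01 and 0.834. ITGA2B and RUNX1 instead had their highest level of any library there: ITGA2B stood at 18.9 FPKM against 11.2 and 4.73, and RUNX1 at 27.5 FPKM against 12.3 and 19.5.

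Set against palmitate by itself, the mixture gave log2 ratios of -3.50 for ITGB3 (95% interval -5.22 to -1.78), -3.17 for CD9 (-5.32 to -1.02), 1.94 for TUBB1 (0.77 to 3.12) and 1.79 for ITGA2B (0.87 to 2.72). RUNX1 stood at 0.47 with an interval that held 0. So 2 genes were past 2-fold higher and 2 lower, where 9.22% of all genes were higher and 10.2% lower. The smallest adjusted p by limma was 0.155. Relative to untreated, RUNX1 was past 2-fold at 1.10 (interval 0.18 to 2.02, adjusted p = 1), where 1.12% of all genes were higher and 0.578% lower, and the other 4 were not, ITGA2B standing at 0.71 (-0.21 to 1.63).

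In the GPAT4 knockout given palmitate, ITGB3 stood at 1.09 FPKM where wild type with palmitate had 24.9, and CD9 at 0.15 FPKM where wild type had 10.4. TUBB1 stood at 3.21 against 0.834 FPKM. ITGA2B at 3.46 against 4.73 FPKM and RUNX1 at 22.8 against 19.5 FPKM lay close together. The log2 ratios were -3.63 for ITGB3 (-5.35 to -1.91), -3.30 for CD9 (-5.45 to -1.16) and 1.20 for TUBB1 (0.03 to 2.37), so 1 gene was past 2-fold higher and 2 were lower, where 7% of all genes were higher and 8.06% lower. The smallest adjusted p was 0.221. Both this comparison and that of both fatty acids with palmitate rest on the same wild-type palmitate library, in which ITGB3 and CD9 had their highest values. ITGB3 and CD9 also passed the limit for testing only through the wild-type palmitate libraries. That they were lower in both comparisons was thus partly built in, and these counts support nothing. The response of the knockout itself was not analysed here, having no untreated library with values.

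**Figure D4:**
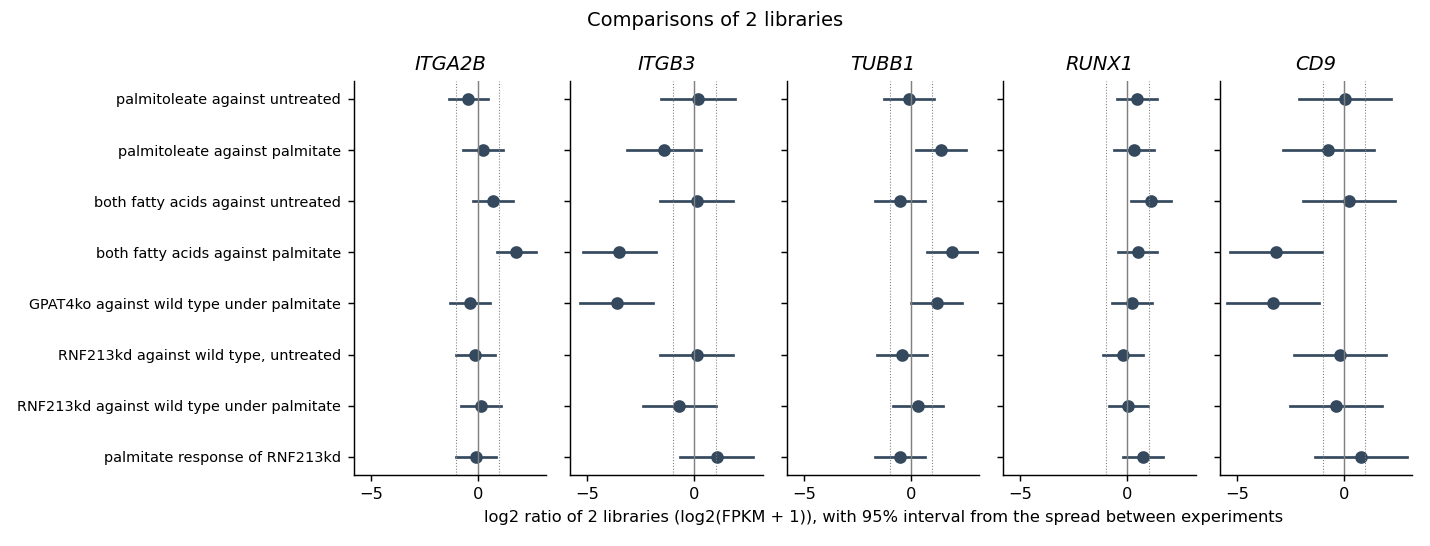
Log2 ratio of 2 libraries on the log2(FPKM + 1) scale for 5 genes in 8 comparisons, with 95% intervals that use the spread of the wild-type ratios between experiments. Dotted lines mark 2-fold; ITGB3 and CD9 lie near -3 to -4 in the comparisons of both fatty acids and of the GPAT4 knockout with wild-type palmitate.

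The RNF213 knockdown was compared with wild type in experiment 3. Untreated, 0 of the 5 genes were past 2-fold between the lines, where 0.46% of all genes were higher and 0.379% lower. With palmitate 0 were past it either, where 0.551% were higher and 0.804% lower. ITGB3 stood at 0.342 and 1.75 FPKM in the knockdown without and with palmitate, where wild type had 0.250 and 3.46 FPKM, a difference of log2 responses of -0.80 with an interval of -3.24 to 1.63 (limma adjusted p = 1). TUBB1 stood at 2.15 and 1.21 FPKM in the knockdown and at 3.19 and 0.767 FPKM in wild type, a difference of 0.74 (-0.92 to 2.40, adjusted p = 1). In the knockdown CD9 stood at 0.315 and 1.28 FPKM, RUNX1 at 6.57 and 11.5 FPKM and ITGA2B at 1.53 and 1.38 FPKM. The intervals of all these differences held 0 and were wide, so they do not show that both lines respond alike. ITGB3 and CD9 passed the limit for testing only through the wild-type palmitate libraries. Their lower level and smaller response in the knockdown were thus partly built in. On the log2(FPKM + 1) scale only ITGB3, at 1.03 (interval -0.69 to 2.75), was past 2-fold within the knockdown. Of all genes 2.74% were higher and 0.704% lower by that measure. CD9 stood at 0.80 on that scale, which understates changes of low genes.

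A wider list of 58 genes of megakaryocytes and platelets was read beside the 8, of which 43 were tested. With palmitate 1 rose and 6 fell by limma, against 6.79% and 4.22% of all genes, and the median ratio was -0.03 against -0.06 over all genes. The list was chosen with earlier results of these data known, so these counts describe it and support nothing. The 6 that fell were transcription factors, among 17 tested: NFE2, the factor known to drive TUBB1 and platelet release, fell by 2.78 ± 0.46 (adjusted p = 0.0257). LDB1 fell by 2.00 and GFI1B, a transcriptional repressor that acts within both the red cell and megakaryocyte lineages, fell by 1.90. MYB fell by 1.65, GATA1, the master factor of red cells and megakaryocytes, fell by 1.46, and LMO2, a partner of LDB1, fell by 1.20. NFE2 stood at 151, 130 and 81.1 FPKM untreated and at 31.6, 6.04 and 21.0 FPKM with palmitate.

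SRGN, the proteoglycan core of secretory granules, was the gene of the list that rose, by 1.78 ± 0.24 (adjusted p = 0.0183), from 108, 139 and 141 FPKM to 468, 583 and 320 FPKM. The 7 tested receptors, 8 cytoskeletal genes and 8 signalling genes did not pass. GP1BB, the partner of GP1BA and GP9 in their receptor, stood far above both, at 28.1, 66.6 and 22.5 FPKM untreated and 17.6, 15.5 and 14.1 FPKM with palmitate (mean log2 ratio -1.11, adjusted p = 0.0789). Overlaps with other genes were looked up for the 8 members only, so whether other transcripts add to the GP1BB level was not tested. MYH9, the non-muscle myosin of platelets, had a mean ratio of 0.83 (adjusted p = 0.165). PF4, a platelet granule chemokine, was listed at 0 in 10 libraries and at 0.0989 FPKM in the RNF213 knockdown with palmitate. Of the 58 genes 9 stayed under 0.1 FPKM in every library, as did 7854 of all 23153 genes.

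**Figure D5:**
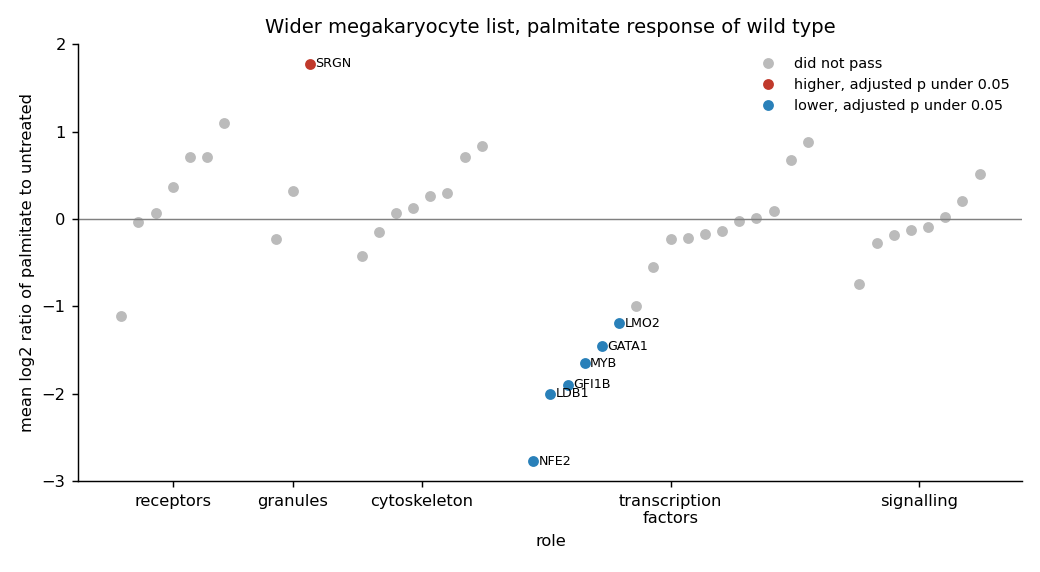
Mean log2 ratio of palmitate to untreated in wild type for the 43 tested genes of the wider list, by role and sorted within each role. The named blue points are the 6 transcription factors that fell, and the red point is SRGN, the gene that rose.

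The same list was read in the comparisons of 2 libraries, as a description with no test. Genes that differ between wild-type palmitate and untreated libraries were picked in part on those palmitate libraries, so a difference from the same libraries is partly built in. Against untreated, palmitoleate left 0 genes of the list past 2-fold higher and 8 lower (0.605% and 6.6% of all genes). Among the 8 were GFI1B, at 64.5 FPKM untreated and 22.0 FPKM with palmitoleate, and LDB1, at 71.3 and 31.2 FPKM. This is 1 pair of libraries of experiment 1, where palmitate ratios fell with GC content (rho = -0.63). In the same pair ITGA2B moved from -0.44 to 0.25 once the GC trend was removed. The part of GC content in these 8 genes was not tested. Against palmitate in experiment 1, palmitoleate had 5 higher (NFE2, GFI1B, LMO2, LDB1 and MYB) and 2 lower (GP6 and SRGN), beside 1.25% and 4.66% of all genes.

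Against the palmitate library of experiment 2, the mixture of fatty acids had 8 genes of the list past 2-fold higher and 6 lower (9.22% and 10.2% of all genes), and the GPAT4 knockout 7 and 6 (7% and 8.06%). Higher in both were the same 5 factors with GATA1 and GP1BB, and RASGRP2 was higher with the mixture. SRGN, MYH9, FLNA and MAFK were lower in both, with CD63 and ACTN1 for the mixture and FERMT3 and WAS for the knockout. Both comparisons rest on the same wild-type palmitate library, so genes found in both were partly built in. The share of all genes past 2-fold in both was not counted, and the overlap supports nothing. NFE2 stood at 108 FPKM with the mixture and 82.4 FPKM in the knockout, where wild type with palmitate had 6.04 FPKM. In the RNF213 knockdown given palmitate NFE2, at 44.7 FPKM, was the 1 gene of the list past 2-fold from wild type (21.0 FPKM), beside 0.551% of all genes higher and 0.804% lower.

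The genes whose levels over the 11 libraries were most like those of each member were sought by Pearson correlation of log2(FPKM + 1), centred within each experiment, among the 8078 genes that averaged 5 FPKM or more and were no small RNA. For ITGB3 they were ASPH (0.994), S100A11 (0.993) and MCL1 (0.991), and for CD9 CERS5 (0.994), SNAP29 (0.992) and PAEP (0.987). For TUBB1 they were TRMU (0.989), TXNL4A (0.980) and ZNF552 (0.979). RUNX1 was most like GRB10 (0.938), PSAT1 (0.933) and FAM89A (0.90), and ITGA2B most like REEP4 (0.881), HOMEZ (0.876) and DNAJC6 (0.868). All points share the scaling of their table and 1 library, wild-type palmitate of experiment 2, lies far from the rest for ITGB3 and CD9, so these values are a description only.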

How the data were processed

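RNA was sequenced from K562 cells in 12 labelled libraries of 3 experiments. The submitters' processing notes name TopHat2, Cuffdiff and the build hg19, and versions are not given in the sources used here. The authors deposited FPKM for each gene in 3 tables, and ratios were formed only within a table, where libraries share 1 scaling. Left out were 26 symbols that had become dates, genes marked failed or capped, and genes given values more than 0.01 apart (relative difference) for 1 library. A further 2 libraries that the labels do not name were not used.

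Ratios used log2(FPKM + 1), which understates changes of low genes. Palmitate was tested in wild type with limma 3.58.1 (R 4.3.3), experiment as block, intensity trend, on the 11075 genes averaging 1 FPKM or more, at a Benjamini-Hochberg adjusted p under 0.05. The labels number the experiments, and this number was the block. Untreated and palmitate libraries of 1 experiment deviated together (r = 0.458, 0.634 and 0.696 across genes). Pooled triplicates leave no spread within an experiment. Ratios of 2 libraries borrowed that spread (2 residual, 4.02 prior degrees of freedom), and past 2-fold was counted. The script was tested on simulated data. Members and lists were chosen with earlier results of these data known. Named are the 8 genes, the label checks, called genes of the wider list with 3 more by role (1 further gene is not reported here), and the 3 most alike genes per member. Positions of promoters are RefSeq's in GRCh38.p14, and overlaps come from a GRCh37 annotation.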

Additional observations from a re-analysis of the deposited data

How the results depend on the processing

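Across 11 alternatives each of the 5 tested genes kept the direction of its palmitate ratio wherever it was tested, and no call was reversed. With no filter on low values limma called 0 genes higher and 0 lower (23153 tested, 3887 at an unadjusted p under 0.05), and 0 of the 8 genes either way. Leaving out small RNA and SNAR genes gave 1224 higher and 1193 lower, and of the 8 genes 2 higher and 2 lower, as CD9 (adjusted p = 0.0103) and ITGA2B (adjusted p = 0.0499) then passed. With the trend on GC content removed it called 1465 higher and 1172 lower, and the calls of the 8 genes stayed the same. Without pairing by experiment (no replicate block) it called 262 higher and 52 lower, and 0 of the 8 genes in either direction, with an adjusted p of 0.115 for ITGB3 and 0.11 for TUBB1. Leaving out 1 experiment gave 0 to 593 genes higher and 0 to 304 lower, and 0 to 2 of the 8 genes higher and 0 to 1 lower. Over all genes the 0 was without experiment 1 (4460 genes had an unadjusted p under 0.05), and for the 8 genes it was without experiment 1 and without experiment 3. Without experiment 3 the calls were 187 higher and 102 lower. Under the limit of 5 FPKM only RUNX1 was tested, so no count of members was made. With a pseudocount of 0.1 FPKM, CD9 joined ITGB3 past 2-fold in 2 comparisons. Its log2 ratio was -1.37 ± 1.49 (± SE) for palmitoleate against palmitate, and 1.74 ± 1.49 for the palmitate response of the RNF213 knockdown. The share of all genes past 2-fold with that pseudocount was not counted. ITGB3 and CD9 passed the limit for testing only through the wild-type palmitate libraries, so this supports nothing. ITGA2B with palmitoleate against untreated stood at 0.25 with the GC trend removed, from -0.44. The cause of these changes was not tested. Genes under 1 FPKM, among them untreated ITGB3 and CD9, rest on few reads, and the number is unknown.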
